A study of Mus musculus with 30 samples.

Results

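The genes described here are 10 genes of the NRF2, glutathione and thioredoxin system in mouse bone marrow derived macrophages. They were chosen by gene symbol from a table of 30538 genes: Nfe2l2, Slc7a11, Gclc, Gclm, Gsr, Nqo1, Txn1, Txnrd1, Srxn1 and Prdx1. Each was found in 1 row, and all 10 were among the 13173 genes with enough counts to test. Polyadenylated RNA was sequenced from 30 libraries in 10 groups of 3 mice, and each gene was followed through all of them. Per the labels, the same 3 mouse numbers recur in every group of a genotype, so these groups share animals. With lipopolysaccharide (LPS, 10 ng/mL for 18 h), the groups were C57BL/6 wild-type cells treated beforehand for 18 h with 25-hydroxycholesterol (25HC, 5 µM), itraconazole (1 µM) or OSW-1 (0.3 µM), untreated Ch25h-/- cells, and untreated wild-type cells. The other 5 groups were the same cells at rest, harvested at time 0 without LPS. 25HC is an oxysterol made by the enzyme that Ch25h encodes, itraconazole is an azole antifungal and OSW-1 is a plant saponin, and the series title names them as inhibitors of oxysterol binding protein. The doses differ between the compounds, no vehicle is named for the untreated cells, and time in culture goes with LPS, so the LPS comparisons hold both. Whether the compounds stayed on the cells during LPS is not stated.

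NRF2, the product of Nfe2l2, is a transcription factor that KEAP1 holds back by marking it for degradation until oxidants or electrophiles modify KEAP1. Freed NRF2 binds antioxidant response elements in the promoters of genes for glutathione synthesis, thioredoxin recycling and detoxification. Because that control acts largely on the protein, the level of Nfe2l2 RNA need not follow NRF2 activity. In macrophages the system handles the oxidants made after contact with bacterial products. Slc7a11 encodes the cystine importer xCT, which brings in the cysteine for glutathione and is also a known target of the amino acid stress factor ATF4.

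The sequences below are promoter windows of 4 genes whose levels followed each other closely across the groups, as described further on. Windows run from 250 bases before to 50 bases after the start site, 5′ to 3′ on the strand of the gene, and come from RefSeq (GRCm38.p6). Of the 10 genes, 8 had such a window. Capitals mark matches, on either strand, to TGACNNNGC, the core of the antioxidant response element, or to TGATGNAA, the core of the element bound by C/EBP and ATF factors. The Slc7a11 window is chr3:50443564-50443863 (minus strand), that of Gclm is chr3:122245307-122245606 (plus strand), that of Txnrd1 is chr10:82858956-82859255 (plus strand, 1 of 3 windows of that gene) and that of Srxn1 is chr2:152105274-152105573 (plus strand).
Slc7a11: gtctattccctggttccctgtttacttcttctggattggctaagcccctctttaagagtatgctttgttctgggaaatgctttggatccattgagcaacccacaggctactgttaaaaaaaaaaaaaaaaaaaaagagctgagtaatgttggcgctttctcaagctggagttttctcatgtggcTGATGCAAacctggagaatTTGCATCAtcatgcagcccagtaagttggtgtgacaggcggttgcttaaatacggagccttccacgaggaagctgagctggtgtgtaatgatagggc
Gclm: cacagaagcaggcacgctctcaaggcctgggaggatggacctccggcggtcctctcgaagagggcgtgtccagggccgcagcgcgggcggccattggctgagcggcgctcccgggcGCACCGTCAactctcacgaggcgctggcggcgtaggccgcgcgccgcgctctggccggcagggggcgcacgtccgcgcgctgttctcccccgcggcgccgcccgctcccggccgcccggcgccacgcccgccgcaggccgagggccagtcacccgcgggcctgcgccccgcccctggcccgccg
Txnrd1: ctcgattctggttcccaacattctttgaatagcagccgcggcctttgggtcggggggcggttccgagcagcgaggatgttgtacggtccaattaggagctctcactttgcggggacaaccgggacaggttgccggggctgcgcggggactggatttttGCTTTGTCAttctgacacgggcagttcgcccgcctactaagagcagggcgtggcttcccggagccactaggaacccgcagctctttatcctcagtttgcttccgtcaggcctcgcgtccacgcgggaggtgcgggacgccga
Srxn1: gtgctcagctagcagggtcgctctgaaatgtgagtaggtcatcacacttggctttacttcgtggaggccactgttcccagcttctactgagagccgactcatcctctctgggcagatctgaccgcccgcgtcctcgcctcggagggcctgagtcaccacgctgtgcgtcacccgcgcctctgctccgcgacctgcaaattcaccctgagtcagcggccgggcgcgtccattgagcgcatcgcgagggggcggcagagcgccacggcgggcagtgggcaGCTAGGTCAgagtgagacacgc
TGACNNNGC was present in 1 window of each of 5 genes, Nfe2l2, Gclm, Txnrd1, Srxn1 and Prdx1, and in 12.4% of the 32817 mouse promoter windows. The Prdx1 match overlaps the AP-1 motif TGACTCA, and the other 4 do not. TGATGNAA occurred in the window of Slc7a11, with matches on opposite strands starting at positions -66 and -47 from the start site, and in none of the other windows of these genes. It was present in 3.97% of all windows. The Txn1 and Nqo1 windows held neither motif. A match describes letters in a window and shows no binding.

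These genes lie on chromosomes 2 (Nfe2l2 and Srxn1), 3 (Slc7a11 and Gclm), 4 (Txn1 and Prdx1), 8 (Gsr and Nqo1), 9 (Gclc) and 10 (Txnrd1), all protein coding in GENCODE vM21 (GRCm38). Most of the exonic length of Gclm, 5670 of 6291 bases, lies under the span of a transcript on the opposite strand, Gm17494, and the strand setting of the counting is not given in the sources used here. The span includes any introns of Gm17494, so overlap between exons was not measured. Whether reads of the 2 transcripts were counted apart is not known. A further 244 exonic bases figure is that of the Gclm overlap with Gm6061, a pseudogene on the same strand.

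Library totals ran from 23656860 to 43922154 counts. In 20 libraries every count was even, in 9 libraries (OSW-1 with LPS and all Ch25h-/- cells) odd counts made up 49.66 to 51.38%, and 1 library (25HC at rest, mouse 3) had 46.13% odd counts. This counting difference cannot be told apart from the group for OSW-1 with LPS and for Ch25h-/- against wild-type cells. The other comparisons of wild-type groups lie within libraries of even counts, apart from the 1 mixed library. Ch25h had 0 to 7 counts in the 6 Ch25h-/- libraries and 16 to 1338 counts in the 24 wild-type libraries. Untreated wild-type cells, with which Ch25h-/- cells were compared, had 94, 86 and 46 counts at rest and 40, 78 and 32 with LPS. All 8 macrophage markers were detected in every group, with a summed level of 9880 to 36100 CPM, counts scaled to library size. Summed markers of neutrophils, dendritic cells, B and T cells and erythroid and mast cells reached at most 3.84, 1.96, 0.307 and 0.198 CPM, and 6 stromal markers 0.685 to 24.8 CPM. One library stood apart in most of the 10 genes, that of untreated wild-type cells with LPS from mouse 3. Its total of 36343366 counts was near those of mice 1 and 2 of its group (40904822 and 38857870 counts). Results that rest on it are given with and without it.

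Across the 10 groups the genes differed widely in the range of their levels. Slc7a11 spanned 0.539 CPM in Ch25h-/- cells at rest to 690 CPM with OSW-1 and LPS, a 1280-fold range of group means. Its lowest mean rests on 19, 11 and 13 counts, so the size of this range is imprecise. Txnrd1, which encodes the reductase that recycles cytosolic thioredoxin, spanned a 12.7-fold range, and Nqo1, Gsr, Gclm, Srxn1 and Prdx1 ranges between 7.99-fold and 9.71-fold. Gclc spanned 3.65-fold, Txn1 2.49-fold and Nfe2l2 1.92-fold. OSW-1 with LPS gave the highest group mean of 7 of the 10 genes. The exceptions were Nfe2l2, highest with OSW-1 at rest, Prdx1, highest with 25HC and LPS, and Txn1, at 518 CPM in untreated wild-type cells with LPS and 509 CPM with 25HC and LPS, which did not differ beyond their spread.

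**Figure D1:**
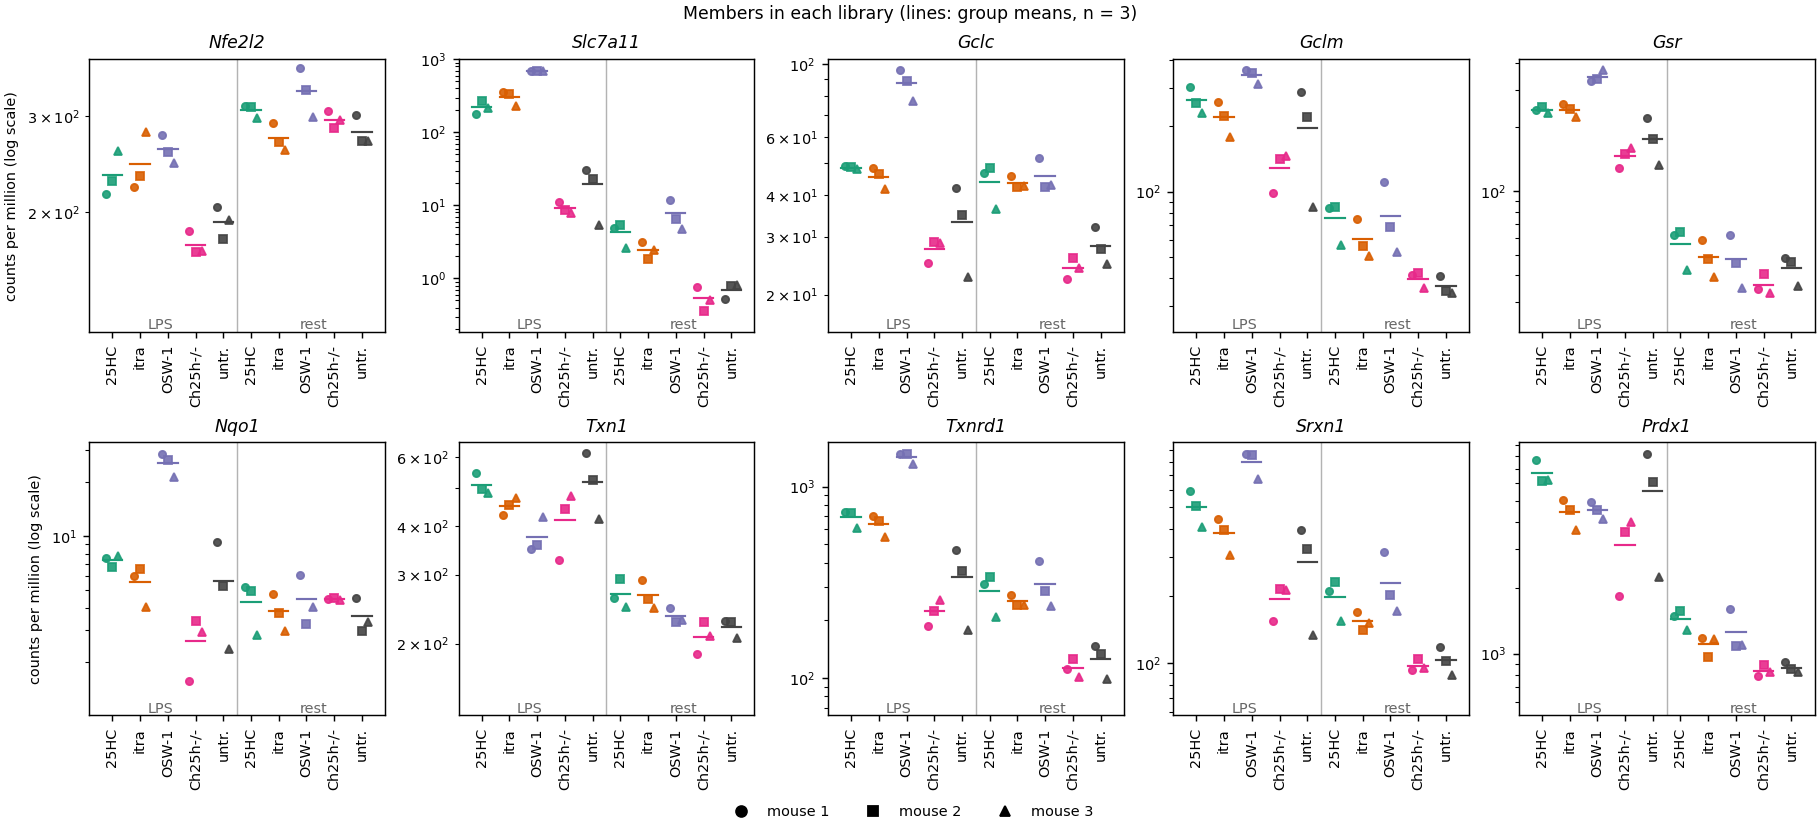
Level of each gene in every library, in CPM on a log axis, with groups given LPS left of groups at rest and a line at each group mean (n = 3 mice). Compounds and untreated (untr.) refer to wild-type cells, and Ch25h-/- cells were untreated. Slc7a11 runs from 0.539 to 690 CPM over the group means, and the triangle of mouse 3 lies low in untreated wild-type cells with LPS for most genes.

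Most of the 10 genes rose with LPS in untreated wild-type cells, while the transcript of the transcription factor NRF2 fell. Cystine import, glutathione reduction and synthesis, and peroxide removal were all represented: Slc7a11, Gclm, Gsr, Txn1, Txnrd1, Srxn1 and Prdx1 rose. That is 7 of the 10 genes, where 30.7% of all tested genes were called higher and 30.1% lower at an adjusted p under 0.05 (edgeR quasi-likelihood test, Benjamini-Hochberg over all tested genes). The median log2 fold change of the 10 genes was 1.44, and that of all tested genes was -0.01. Slc7a11 had 30.7, 23 and 5.47 CPM with LPS, against 0.52, 0.782 and 0.805 CPM at rest, in mice 1, 2 and 3. The 3 libraries with LPS all lay above those at rest, with mouse 3 well under the other two. The log2 fold change was 4.82 ± 0.52 (here and below ± after a log2 fold change is its standard error) with an adjusted p of 2.5e-08.

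Among the enzymes of glutathione, Gclm, the modifier subunit of glutamate-cysteine ligase, had 286, 219 and 85 CPM with LPS and 41, 35.1 and 34.5 CPM at rest. Its catalytic partner Gclc had 42.2, 34.9 and 22.6 CPM with LPS and 32, 27.5 and 24.8 CPM at rest. So the modifier subunit rose without overlap (2.41 ± 0.31), while the groups overlapped for the catalytic subunit (0.24 ± 0.15, adjusted p = 0.168). Gsr, glutathione reductase, rose to 220, 176 and 132 CPM with LPS, against 48.1, 46.4 and 35.5 CPM at rest (2.02 ± 0.20). On the thioredoxin side, Prdx1, an abundant peroxiredoxin that breaks down hydrogen peroxide, had 8190, 6090 and 2230 CPM with LPS and 910, 854 and 820 CPM at rest (2.68 ± 0.31). Srxn1, the sulfiredoxin that repairs overoxidized peroxiredoxins, had 395, 325 and 134 CPM with LPS and 119, 103 and 88.1 CPM at rest (1.47 ± 0.28). The groups did not overlap for either gene, and mouse 3 was again the lowest. Txnrd1 rose by 1.42 ± 0.25 and thioredoxin itself, Txn1, by 1.23 ± 0.13.

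Nfe2l2 fell to 204, 178 and 194 CPM with LPS, against 301, 271 and 270 CPM at rest (-0.55 ± 0.09, adjusted p = 1.1e-05). All 3 libraries with LPS were below all 3 at rest, and here mouse 3 lay between the others. Nqo1, a quinone reductase often used as a readout of NRF2, had 9.28, 5.28 and 2.37 CPM with LPS and 4.54, 2.97 and 3.34 CPM at rest. Its groups overlapped, and its log2 fold change of 0.64 ± 0.34 did not pass the test (adjusted p = 0.107). Without mouse 3 of the group with LPS, all 10 genes were called, Gclc at 0.46 (adjusted p = 0.00278) and Nqo1 at 1.00 (adjusted p = 0.00531). Without mouse 1 of that group, Gclc was at 0.03 (adjusted p = 0.876) and Nqo1 at 0.08 (adjusted p = 0.862). Of the 13173 tested genes, 8128 were called in either direction without mouse 3 and 7289 without mouse 1. The summed macrophage markers ranged from 24800 to 36100 CPM with LPS and from 17600 to 22300 CPM at rest, and the stromal markers from 6.32 to 12.8 CPM with LPS and from 1.7 to 3.44 CPM at rest, and their part in these results was not tested.

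**Figure D2:**
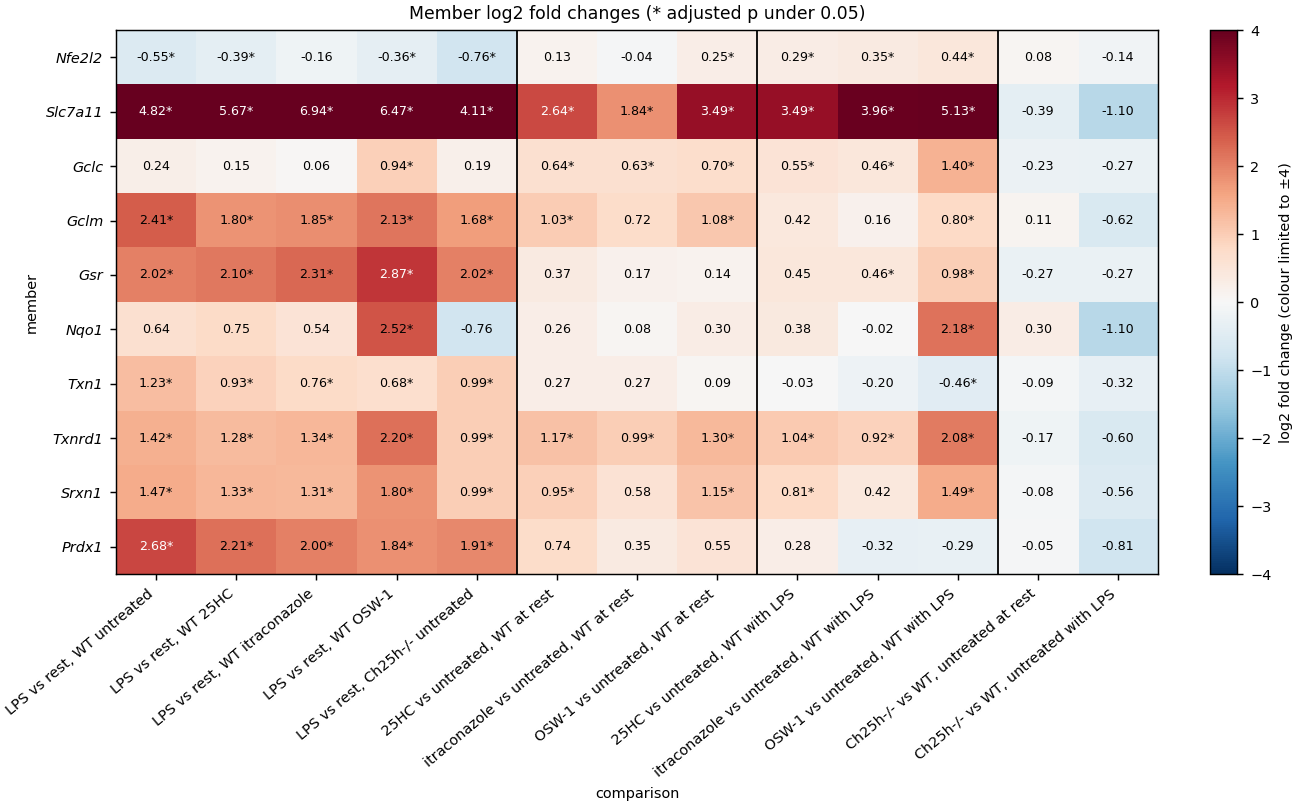
Log2 fold change of each gene (rows) in 13 comparisons (columns), first LPS against rest, then compounds against untreated cells at rest and with LPS, then Ch25h-/- against wild-type cells. Asterisks mark an adjusted p under 0.05. Slc7a11 has the deepest colour throughout the LPS and compound comparisons, with 6.94 as its highest value.

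The LPS response kept this outline in the other cells. In wild-type cells given 25HC, 7 genes rose and 1 fell with LPS, where 30.5% of all tested genes were called higher and 33.3% lower. With itraconazole 7 rose and none fell (background 33.4% and 33.5%), and with OSW-1 9 rose and 1 fell (34.7% and 36.6%). In untreated Ch25h-/- cells 7 rose and 1 fell (28% and 29.2%). Slc7a11, Gclm, Gsr, Txn1, Txnrd1, Srxn1 and Prdx1 rose in each of the 5 comparisons. The log2 fold change of Slc7a11 was 5.67 ± 0.45 with 25HC, 6.94 ± 0.48 with itraconazole, 6.47 ± 0.46 with OSW-1 and 4.11 ± 0.59 in Ch25h-/- cells. Nfe2l2 was the gene that fell, with log2 fold changes of -0.39 ± 0.09 with 25HC, -0.36 ± 0.09 with OSW-1 and -0.76 ± 0.09 in Ch25h-/- cells, and its value with itraconazole of -0.16 ± 0.09 did not pass (adjusted p = 0.127). In the OSW-1 comparison Gclc (0.94 ± 0.15) and Nqo1 (2.52 ± 0.34) passed as well. In Ch25h-/- cells Nqo1 stood at 1.58, 3.38 and 2.94 CPM with LPS and at 4.48, 4.53 and 4.42 CPM at rest, with no overlap, and its log2 fold change of -0.76 ± 0.37 had an adjusted p of 0.0789. With the mouse as a block that p was 0.0231, and that of Nqo1 in 25HC cells (0.75 ± 0.33) was 0.00925 in place of 0.0513.

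At rest, the cystine importer, the catalytic subunit of glutathione synthesis and the thioredoxin reductase rose with each of the compounds. Slc7a11 had 4.86, 5.45 and 2.64 CPM with 25HC, 3.13, 1.84 and 2.44 CPM with itraconazole and 11.9, 6.59 and 4.76 CPM with OSW-1, against 0.52, 0.782 and 0.805 CPM untreated. No treated library reached as low as an untreated one. The log2 fold changes were 2.64 ± 0.55 for 25HC, 1.84 ± 0.57 for itraconazole and 3.49 ± 0.53 for OSW-1. Txnrd1 had 310, 335 and 207 CPM with 25HC, 272, 240 and 241 CPM with itraconazole and 407, 283 and 238 CPM with OSW-1, against 147, 133 and 98.5 CPM untreated. The treated and untreated libraries did not overlap, and the log2 fold changes were 1.17 ± 0.25, 0.99 ± 0.25 and 1.30 ± 0.25 in that order of compounds. Gclc was higher by 0.64 ± 0.15 with 25HC, 0.63 ± 0.15 with itraconazole and 0.70 ± 0.15 with OSW-1. Gclc passed with each compound alone and not with LPS alone in the main fit, but LPS and the compounds were not tested against each other. Without mouse 3 of the untreated group with LPS, Gclc was also called with LPS (0.46, adjusted p = 0.00278).

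Gclm and Srxn1 rose with 25HC (1.03 ± 0.30 and 0.95 ± 0.27) and with OSW-1 (1.08 ± 0.30 and 1.15 ± 0.28). With itraconazole their log2 fold changes were 0.72 ± 0.30 (adjusted p = 0.078) and 0.58 ± 0.27 (adjusted p = 0.124), and with the mouse as a block both passed, at adjusted p of 0.0175 and 0.0168. Nfe2l2 was called with OSW-1 alone, at 368, 336 and 299 CPM against 301, 271 and 270 CPM untreated, with overlapping groups (0.25 ± 0.09, adjusted p = 0.0301). In all, 5 of the 10 genes rose with 25HC, where 15.9% of all tested genes were called higher and 12.8% lower. With itraconazole it was 3 of the 10 in the main fit (background 14.3% and 12.3%). The mouse block called 5 of the 10 and a fit of the compared groups alone 7, with a background not given here. With OSW-1 it was 6 of the 10 in the main fit (20% and 17.2%). None of the 10 was called lower. The median log2 fold change of the 10 was 0.69 with 25HC, 0.46 with itraconazole and 0.62 with OSW-1, and that of all tested genes 0.01, 0 and 0. Txn1 and Nqo1 were called with none of the compounds at rest, and with the block 25HC also called Gsr (adjusted p = 0.0469) and Prdx1 (adjusted p = 0.0261). Leaving out mouse 3 of the untreated group or mouse 2 of the 25HC group left 3 genes called with 25HC, and leaving out the library with mixed counts left 6. Fits of that comparison without a single library called 2349 to 4009 of the 13173 tested genes in either direction.

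When the treated cells also received LPS, the largest difference was again that of Slc7a11. It had 180, 269 and 217 CPM with 25HC, 354, 339 and 227 CPM with itraconazole and 690, 691 and 689 CPM with OSW-1, against 30.7, 23 and 5.47 CPM in untreated cells with LPS. Every treated library was above every untreated one, and the libraries with OSW-1 were above those of the other compounds. The log2 fold changes against untreated cells with LPS were 3.49 ± 0.40, 3.96 ± 0.41 and 5.13 ± 0.43. Without mouse 3 of the untreated group they were 3.05, 3.51 and 4.68, all called. Txnrd1 had 738, 729 and 607 CPM with 25HC, 701, 663 and 545 CPM with itraconazole and 1490, 1470 and 1310 CPM with OSW-1, against 468, 363 and 178 CPM untreated. Its groups did not overlap either (1.04 ± 0.25, 0.92 ± 0.24 and 2.08 ± 0.25). Nfe2l2 was higher with each compound in these cells, by 0.29 ± 0.09, 0.35 ± 0.09 and 0.44 ± 0.09, so its level with LPS lay between that of untreated cells with LPS and that of cells at rest.

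With 25HC and LPS 5 of the 10 genes rose, where 20.8% of all tested genes were called higher and 21% lower: Nfe2l2, Slc7a11, Gclc (0.55 ± 0.15), Txnrd1 and Srxn1 (0.81 ± 0.27). With itraconazole and LPS 5 rose (background 26.4% and 27.9%): Nfe2l2, Slc7a11, Gclc (0.46 ± 0.15, groups overlapping), Gsr (0.46 ± 0.19) and Txnrd1. With OSW-1 and LPS 8 rose and 1 fell (34.3% and 37%). The median log2 fold changes of the 10 were 0.44, 0.39 and 1.19, and those of all tested genes -0.01, -0.03 and -0.06. Several of these calls rested on single untreated mice. Without mouse 1, 8 of the 10 genes were called with 25HC, where 5017 of the 13173 tested genes were called in either direction. Without mouse 3, Srxn1 with 25HC (0.47, adjusted p = 0.102) and Gclc and Gsr with itraconazole (0.24 and 0.29, adjusted p = 0.112 and 0.233) were no longer called, and Txn1 and Prdx1 were called lower with itraconazole (-0.34 and -0.70). Fitted on the compared groups alone, 2 of the 10 genes were called with 25HC and 1 with itraconazole. In those fits 3134 and 4546 of the 13173 tested genes were called in either direction. With the mouse as a block Gsr was also called with 25HC (adjusted p = 0.00682) and Srxn1 with itraconazole (adjusted p = 0.0275). The summed macrophage markers ranged from 18000 to 23400 CPM with 25HC and LPS and from 19500 to 32400 CPM with itraconazole and LPS, against 24800 to 36100 CPM in untreated cells with LPS, so those of 25HC did not overlap the untreated range. The stromal markers ranged from 5.73 to 5.86 CPM and from 4.46 to 8.21 CPM with these compounds, against 6.32 to 12.8 CPM untreated. Their part in these results was not tested.

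Nqo1 rose with OSW-1 and LPS. It had 28.7, 26.6 and 21.4 CPM with OSW-1, 7.52, 6.77 and 7.72 CPM with 25HC and 6.03, 6.6 and 4.06 CPM with itraconazole, against 9.28, 5.28 and 2.37 CPM untreated. The libraries with 25HC and itraconazole lay inside the untreated range. The OSW-1 libraries were above all the others, with a log2 fold change of 2.18 ± 0.33 against untreated cells (adjusted p = 2.52e-06). Gclc had 96.4, 89.2 and 77.4 CPM with OSW-1 and 42.2, 34.9 and 22.6 CPM untreated (1.40 ± 0.15). Gsr had 330, 339 and 372 CPM with OSW-1 and 220, 176 and 132 CPM untreated (0.98 ± 0.19). Both rose without overlap, as did Srxn1 (1.49 ± 0.28) and Gclm (0.80 ± 0.29), although Gclm was not called without mouse 3 of the untreated group (0.44, adjusted p = 0.117). Thioredoxin fell. Txn1 had 349, 357 and 420 CPM with OSW-1 and 615, 522 and 416 CPM untreated, a log2 fold change of -0.46 ± 0.13 (adjusted p = 0.00183) in which mouse 3 of each group overlapped. Prdx1, at 4910, 4540 and 4100 CPM with OSW-1 and 8190, 6090 and 2230 CPM untreated, did not pass (-0.29 ± 0.29), and without mouse 3 of the untreated group it was called lower (-0.66, adjusted p = 0.00927). Beside these values, the summed macrophage markers ranged from 9880 to 12600 CPM with OSW-1 and LPS and from 24800 to 36100 CPM in untreated cells with LPS, with none of the 8 at 0. The stromal markers ranged from 15.1 to 23.4 CPM with OSW-1 and LPS and from 6.32 to 12.8 CPM in untreated cells with LPS. Their part in the result was not tested. In bulk RNA, fewer cells of a type and less RNA per cell cannot be told apart.

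The difference between LPS responses was tested directly for each compound against no compound. With itraconazole 2 of the 10 genes were called, where 26.3% of all tested genes were called in either direction: Nfe2l2, which fell less (difference 0.39 ± 0.13, adjusted p = 0.0262), and Slc7a11, which rose more (2.12 ± 0.73, adjusted p = 0.036). Txn1 (-0.47 ± 0.18) was also called with the mouse as a block, at an adjusted p of 0.0257 in place of 0.0501. Neither Nfe2l2 nor Slc7a11 was called when only the compared groups were fitted. Leaving out single libraries gave 0 to 5 of the 10, with 5 without mouse 3 of the untreated group with LPS. In those fits 2502 to 4375 of the 13173 tested genes were called in either direction. With OSW-1 4 of the 10 were called (background 51.5%). The responses of Nqo1 (1.88 ± 0.47), Gsr (0.84 ± 0.27) and Gclc (0.70 ± 0.21) were larger, and that of Txn1 smaller (-0.55 ± 0.18). Txn1 was not called without mouse 1 of the untreated group with LPS (-0.41, adjusted p = 0.0508). With the mouse as a block Slc7a11 (1.64 ± 0.71) and Txnrd1 (0.79 ± 0.34) were also called, at adjusted p of 0.0319 and 0.00434 in place of 0.0555 and 0.0596. With 25HC none of the 10 passed (background 12%), and the share of these genes called with OSW-1 was no higher than the background.

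The compounds were also set against each other in 6 comparisons, with the reservation that their doses differ. 25HC against itraconazole called none of the 10 genes at rest (0.235% of all tested genes) or with LPS (6.43%). OSW-1 against 25HC at rest called none (2.71%), and OSW-1 against itraconazole at rest called Slc7a11 (1.65 ± 0.43, adjusted p = 0.0245), where 6.33% of all tested genes were called. That call was lost without filtering low counts and on leaving out any of the 3 itraconazole mice or OSW-1 mouse 1. Nfe2l2 (0.29 ± 0.09) was also called at rest with the mouse as a block, at an adjusted p of 0.0467 in place of 0.0556. With LPS, OSW-1 against itraconazole called 6 of the 10 (48.4%), all higher: Slc7a11 (1.17 ± 0.36), Gclc (0.94 ± 0.15), Gsr (0.52 ± 0.19), Nqo1 (2.20 ± 0.33), Txnrd1 (1.16 ± 0.25) and Srxn1 (1.07 ± 0.27). Gclm (0.64 ± 0.29) was also called with the mouse as a block, at an adjusted p of 0.0125 in place of 0.0773. OSW-1 against 25HC with LPS called those 6 higher and Txn1 lower (58.7%). There Slc7a11 differed by 1.64 ± 0.37, Nqo1 by 1.80 ± 0.33, Txnrd1 by 1.04 ± 0.25 and Txn1 by -0.44 ± 0.13. The percentages count both directions, and on that count the shares with LPS are close to those of all genes. The median log2 fold change of the 10 genes with LPS was 0.79 for OSW-1 against itraconazole and 0.6 against 25HC. That of all tested genes was 0 and -0.03.

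Partners in 1 enzyme or cycle were compared within each library. The ratio of Gclm to Gclc CPM, modifier over catalytic subunit, was 6.77, 6.27 and 3.77 in untreated wild-type cells with LPS, against 1.28, 1.28 and 1.39 at rest. It was 3.74, 3.94 and 4.04 with OSW-1 and LPS, against 2.14, 1.63 and 1.24 with OSW-1 at rest. LPS libraries were above resting ones in every treatment, and the OSW-1 libraries with LPS lay near mouse 3 of the untreated cells with LPS and below mice 1 and 2. The ratio of Txnrd1 to Txn1 CPM, reductase over its substrate, followed the compounds. It was 4.26, 4.13 and 3.12 with OSW-1 and LPS, 1.65, 1.47 and 1.16 with itraconazole and LPS, and 1.36, 1.47 and 1.25 with 25HC and LPS, against 0.76, 0.694 and 0.428 in untreated cells with LPS. At rest it was 1.66, 1.25 and 1.03 with OSW-1, 0.937, 0.923 and 0.978 with itraconazole and 1.19, 1.15 and 0.835 with 25HC, against 0.643, 0.585 and 0.475 untreated. Treated and untreated libraries did not overlap in either state. These are ratios of read counts, not of molecules, and only their change between groups can be read.

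**Figure D3:**
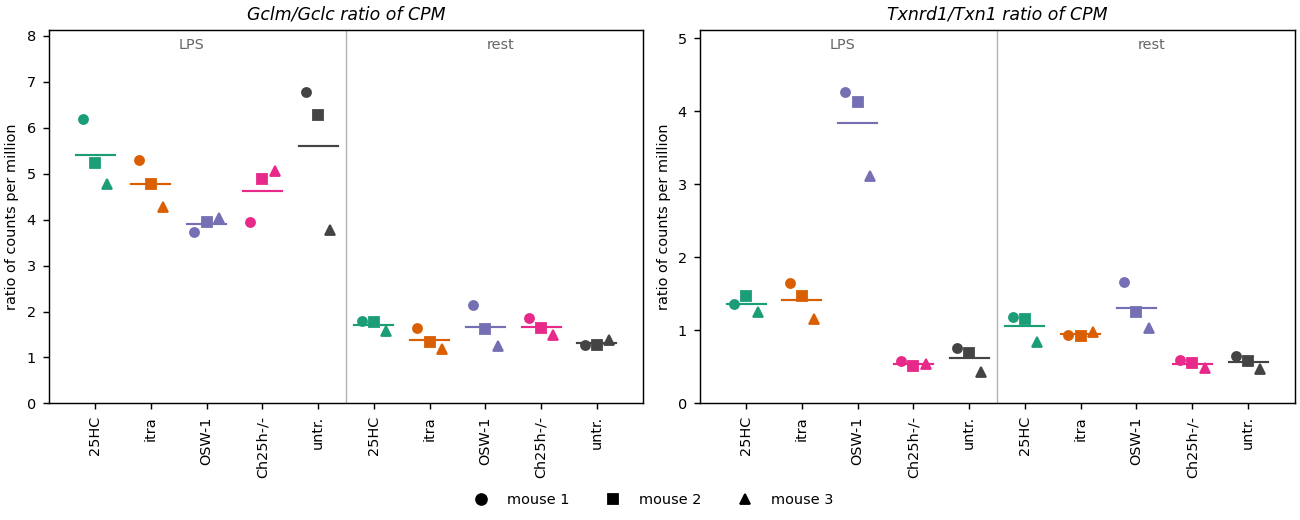
Ratio of CPM within each library for Gclm over Gclc (left) and Txnrd1 over Txn1 (right), groups with LPS left of groups at rest, lines at group means (n = 3 mice), axes from 0. The left ratio is high in all groups with LPS, and the right ratio peaks with OSW-1 and LPS at 3.12 to 4.26.

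Untreated Ch25h-/- cells were compared with untreated wild-type cells. None of the 10 genes was called at rest, where 0.00759% of all tested genes (1 gene) was called, and none with LPS, where 0.19% (25 genes) were called by edgeR. At an unadjusted p under 0.05 there were 1703 and 2244 genes, and DESeq2 called 129 and 230. At rest the log2 fold changes of the 10 genes lay between -0.39 ± 0.79 for Slc7a11 and 0.30 ± 0.34 for Nqo1. With LPS the log2 fold changes lay between -1.10 ± 0.40 for Slc7a11, or -1.10 ± 0.36 for Nqo1, and -0.14 ± 0.09 for Nfe2l2, with a median of -0.58 against -0.01 for all tested genes. Slc7a11 had 11, 8.61 and 7.99 CPM in Ch25h-/- cells and 30.7, 23 and 5.47 CPM in wild-type cells, both with LPS. Prdx1 had 1840, 3580 and 3990 CPM in Ch25h-/- cells and 8190, 6090 and 2230 CPM in wild-type cells. Wild-type mouse 3 lay below the Ch25h-/- range for Slc7a11 and inside it for Prdx1, and wild-type mice 1 and 2 lay above it for both.

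The count of called genes rested on that library. Without wild-type mouse 3, 8 of the 10 genes were called lower in Ch25h-/- cells with LPS, and 2379 of all tested genes were called in either direction. Among them were Slc7a11 at -1.55 (adjusted p = 0.00154), Nqo1 at -1.46 (adjusted p = 0.00293), Prdx1 at -1.19 (adjusted p = 0.000929) and Gclm at -0.98 (adjusted p = 0.00782). Nfe2l2 and Gsr were not called. Leaving out any other library of that comparison called none of the 10 and 0 to 5 genes in all. At rest, leaving out wild-type mouse 3 called 361 genes and leaving out Ch25h-/- mouse 2 called 60, none of them among the 10. The stromal markers summed to 13.5 to 24.8 CPM in Ch25h-/- cells with LPS and 6.32 to 12.8 CPM in wild-type cells with LPS, and to 5.59 to 12 CPM in Ch25h-/- cells at rest and 1.7 to 3.44 CPM in wild-type cells at rest, without overlap in either state. Of the 6, Lum was at 0 in all groups at rest, and the part of these markers was not tested. The difference between the LPS responses of Ch25h-/- and wild-type cells called 0 of the 10 genes and 0% of all tested genes by edgeR, with 1460 genes at an unadjusted p under 0.05 and 8 called by DESeq2. Without wild-type mouse 3 with LPS, 2 of the 10 genes and 723 genes in all were called.

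**Figure D4:**
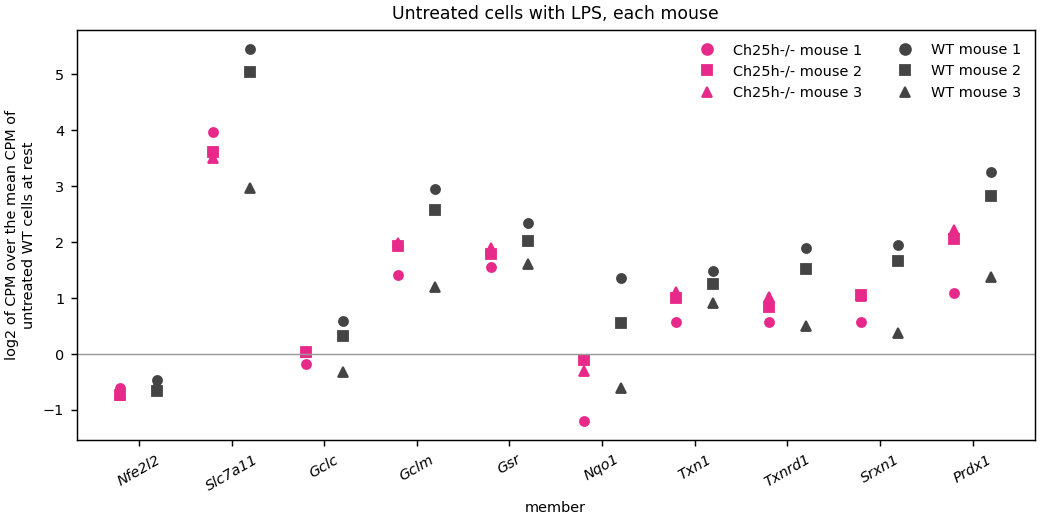
Level of each gene in untreated cells with LPS, as the log2 of its CPM over the mean CPM of untreated wild-type cells at rest, for 3 Ch25h-/- mice (left points) and 3 wild-type mice (right points). Wild-type mouse 3 (dark triangle) lies below the other wild-type mice for 9 of the 10 genes.

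The order of the animals was alike for many of these genes. In untreated wild-type cells with LPS, mouse 3 was the lowest for 9 of the 10 genes and mouse 1 the highest for all 10. Mouse 3 was also the lowest for 10 of the 10 genes with 25HC at rest and for 8 of the 10 with itraconazole and LPS, with OSW-1 and LPS and in untreated cells at rest. It was the lowest for 6 of the 10 with 25HC and LPS and with OSW-1 at rest, and for 5 of the 10 with itraconazole at rest. The labels give the same 3 mouse numbers in all 8 wild-type groups. Among Ch25h-/- mice with LPS, mouse 1 was the lowest for 8 of the 10.

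Over the 10 group means of log2 CPM, which come from the same animals in several groups, the pairs with the highest Pearson correlation were Txnrd1 and Srxn1 (0.99), Slc7a11 and Srxn1 (0.97), Gclm and Gsr (0.97) and Txn1 and Prdx1 (0.97). Slc7a11 correlated at 0.96 with both Gclm and Txnrd1. Nfe2l2 correlated at -0.78 to 0.21 with the other genes. Among 9759 further genes with an average log2 CPM of at least 2, the nearest in pattern to Slc7a11 were Cry1 (0.997), Klc2 (0.996) and Mief1 (0.995). The nearest to Nqo1 was Reps1 (0.973), to Txnrd1 Nae1 (0.994), to Srxn1 Ubxn4 (0.994), to Txn1 Il1rn (0.988) and to Nfe2l2 Gkap1 (0.976). With 10 points and this many candidates, these values describe a ranking only.

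The wider pathway was followed through gene lists, in which no gene was called between Ch25h-/- and wild-type cells. Of 12 regulators and partners of NRF2, 9 rose and 2 fell with LPS in untreated wild-type cells, where 30.7% of all tested genes were called higher and 30.1% lower. The median log2 fold change of the 12 was 0.34, and that of all tested genes -0.01. Maff and Mafg, small MAF proteins that pair with NRF2 on DNA, rose by 3.38 ± 0.35 and 0.86 ± 0.09, and the related factor Nfe2l1 by 1.29 ± 0.14. At rest 3 of the 12 rose and 2 fell with 25HC (all tested genes 15.9% and 12.8%). With itraconazole 2 rose and 2 fell (14.3% and 12.3%), and with OSW-1 6 rose and 1 fell (20% and 17.2%). With itraconazole, and for the genes that fell with 25HC, these shares were near those of all genes. Keap1 fell with each compound at rest, by 0.31 ± 0.08 with 25HC, 0.28 ± 0.08 with itraconazole and 0.41 ± 0.08 with OSW-1, while Maff rose by 1.52 ± 0.36, 2.25 ± 0.35 and 1.86 ± 0.35. With LPS, Sqstm1, an autophagy receptor that binds KEAP1, was higher by 1.68 ± 0.31 with 25HC, 1.80 ± 0.31 with itraconazole and 2.54 ± 0.31 with OSW-1. Of the 12, 7 rose and 1 fell with 25HC and LPS (all tested genes 20.8% and 21%), 7 rose and 2 fell with itraconazole and LPS (26.4% and 27.9%), and 7 rose and 3 fell with OSW-1 and LPS (34.3% and 37%).

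Of 17 other known NRF2 targets, 13 rose and 1 fell with LPS in untreated wild-type cells (median 0.88), where 30.7% of all tested genes were called higher and 30.1% lower. Hmox1, heme oxygenase, rose by 4.15 ± 0.34 and the ferritin heavy chain Fth1 by 2.59 ± 0.13, and the epoxide hydrolase Ephx1 fell by 2.59 ± 0.27. At rest 3 rose and 2 fell with 25HC (all tested genes 15.9% higher and 12.8% lower). With itraconazole at rest 2 rose and 1 fell (14.3% and 12.3%), and with OSW-1 at rest 3 rose and 5 fell (20% and 17.2%). The shares that rose at rest were near those of all genes. Medians of the 17 at rest were 0.12, -0.12 and -0.18 in that order of compounds. Against untreated cells with LPS, 1 rose and 4 fell with 25HC (all tested genes 20.8% higher and 21% lower), 1 rose and 10 fell with itraconazole (26.4% and 27.9%), and 3 rose and 8 fell with OSW-1 (34.3% and 37%). The medians of the 17 were -0.16, -0.40 and -0.31. The share that fell with 25HC was near that of all genes, where lower calls also slightly outnumbered higher ones. Hmox1 averaged 505 CPM with OSW-1 and LPS and 5570 CPM in untreated cells with LPS (-3.46 ± 0.33). The glutathione conjugate exporter Abcc1 rose in all 3 (0.57 ± 0.14, 0.69 ± 0.14 and 1.80 ± 0.14). In the same comparisons the heme transporter Slc48a1 fell by 0.75 ± 0.14, 1.12 ± 0.14 and 2.20 ± 0.14.

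Of 27 other glutathione genes, 24 were tested. With LPS in untreated wild-type cells 11 rose and 6 fell (all tested genes 30.7% higher and 30.1% lower), with a median of 0.29. At rest 2 rose and 4 fell with 25HC (all tested genes 15.9% higher and 12.8% lower), 3 rose and 6 fell with itraconazole (14.3% and 12.3%), and 2 rose and 8 fell with OSW-1 (20% and 17.2%). With LPS 4 rose and 9 fell with 25HC (20.8% and 21%), 3 rose and 12 fell with itraconazole (26.4% and 27.9%), and 4 rose and 14 fell with OSW-1 (34.3% and 37%). The median with OSW-1 and LPS was -0.78, and that of all tested genes -0.06. The shares that fell with 25HC at rest, that rose with itraconazole at rest and that rose with 25HC and LPS were near those of all genes. Glutathione peroxidase 1, Gpx1, averaged 56.9 CPM with OSW-1 and LPS and 339 CPM in untreated cells with LPS (-2.57 ± 0.18). Genes of the list that rose included Slc3a2, the heavy chain that carries xCT to the membrane, which rose by 0.80 ± 0.16 with 25HC and 1.24 ± 0.16 with OSW-1 at rest. Chac1, which breaks glutathione down and is an ATF4 pathway target, averaged 10.2, 6.69 and 23.3 CPM with 25HC, itraconazole and OSW-1 at rest, against 1.05 CPM untreated (3.25 ± 0.49, 2.65 ± 0.49 and 4.44 ± 0.49). Of 15 further thioredoxin and peroxiredoxin genes, 7 rose and 5 fell with LPS in untreated wild-type cells (30.7% and 30.1%), with a median of 0.12. With each compound at rest 3 rose and 3 fell. There 15.9%, 14.3% and 20% of all tested genes were called higher and 12.8%, 12.3% and 17.2% lower with 25HC, itraconazole and OSW-1. With LPS 4 rose and 3 fell with 25HC (20.8% and 21%), 5 rose and 6 fell with itraconazole (26.4% and 27.9%), and 5 rose and 7 fell with OSW-1 (34.3% and 37%). Most of the shares with compounds were near those of all genes. Among them were both shares with OSW-1 at rest and that of the genes that rose with 25HC at rest. With LPS they included the genes that fell with 25HC and those that rose with OSW-1. The mitochondrial pair Txn2 and Txnrd2 rose with OSW-1 and LPS (0.82 ± 0.07 and 1.15 ± 0.11), while cytosolic Txn1 fell.

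Of 12 genes that make or remove oxidants, 8 rose and 1 fell with LPS in untreated wild-type cells (median 1.28), where 30.7% of all tested genes were called higher and 30.1% lower. The NADPH oxidase subunit Cybb rose by 2.66 ± 0.10 and mitochondrial superoxide dismutase Sod2 by 4.52 ± 0.15. With OSW-1 and LPS 4 rose and 4 fell, near the 34.3% and 37% of all tested genes. There Nos2, inducible nitric oxide synthase, averaged 37.5 CPM with OSW-1 and 425 CPM untreated (-3.50 ± 0.52). Of the 12 genes of the list of ATF4 and its targets, 10, 7 and 10 rose at rest with 25HC, itraconazole and OSW-1, where 15.9%, 14.3% and 20% of all tested genes were called higher. With LPS 6, 7 and 8 rose, where 20.8%, 26.4% and 34.3% of all tested genes were called higher. None of the 12 was called lower with a compound. Atf4 itself rose by 1.27 ± 0.18, 0.91 ± 0.18 and 1.71 ± 0.18 at rest and by 0.96 ± 0.18, 1.25 ± 0.18 and 1.64 ± 0.18 with LPS. These values stand beside those of Slc7a11, and whether ATF4 acted on it was not tested.

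**Figure D5:**
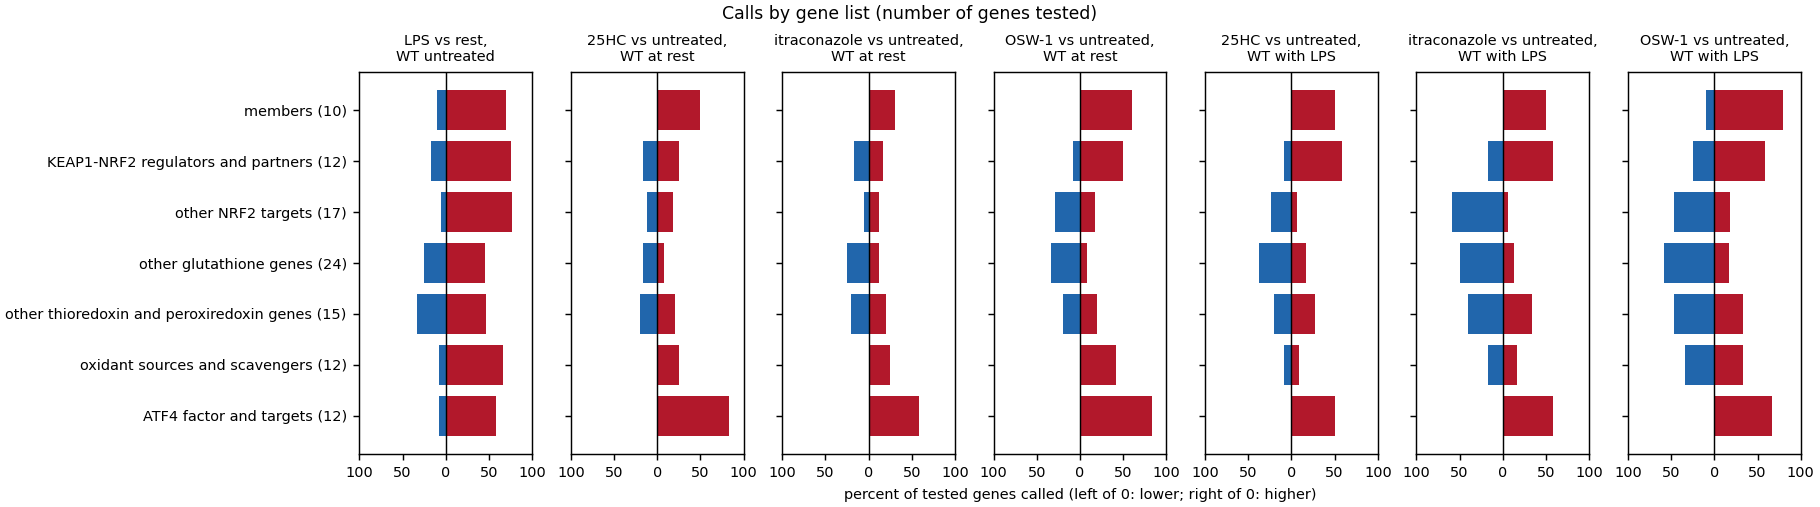
Percent of the tested genes of each list called lower (blue, left of 0) and higher (red, right of 0) at an adjusted p under 0.05, in 7 comparisons, with the number tested in brackets. With LPS present, the 10 genes described here (members) have 5, 5 and 8 called higher under 25HC, itraconazole and OSW-1 (all tested genes 20.8%, 26.4% and 34.3%). Among 17 other NRF2 targets 4, 10 and 8 are called lower (all tested genes 21%, 27.9% and 37%), and the share with 25HC is near that of all genes.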

How the data were processed

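The authors deposited 1 table of raw counts for 30538 genes in 30 libraries. The tools, per the submitters' processing notes, were FastQC 0.11.9, GSNAP, featureCounts of Subread 1.5.2 and edgeR 3.26.8, with mm10. Per the labels' protocols, polyadenylated RNA was made into stranded TruSeq libraries. The strand setting and annotation release are not given in the sources used here. From the deposited counts, 13173 genes passed filterByExpr (minimum count 10); 11735 genes had no count. Library totals were 23656860 to 43922154 counts. The main fit held no mouse block. Its standard errors and adjusted p therefore treat libraries of the same mouse in different groups as independent, and the pairing enters only the alternative with a block. CPM used TMM normalization. edgeR 4.0.16 in R 4.3.3 (robust quasi-likelihood test, 1 fit of all 10 groups, 23 comparisons) gave log2 fold changes, and Benjamini-Hochberg adjusted p under 0.05 over all tested genes was a call. The standard error is the absolute log2 fold change over the square root of F.

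The members and lists were chosen with earlier results of these data known. All 10 members are named, and up to 4 genes of each other list and comparison with the smallest p; a gene named in 1 comparison is also given in the comparisons set beside it. Likeness ranks the 3 nearest genes per member by Pearson correlation over 10 group means (log2 CPM, prior count 2). Alternatives were DESeq2 1.42.0 and its size factors, no filter, the compared groups alone, halved even counts, a mouse block and leaving out each library. The mouse number names an animal within a genotype, per the labels, and so pairs its libraries. The median correlation of same-mouse deviations was 0.0865 in wild-type and 0.0906 in Ch25h-/- cells, and 24 of 24 and 6 of 6 libraries correlated best with their own number. Figures used matplotlib 3.10.9.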

Additional observations from a re-analysis of the deposited data

Results flagged for a closer look

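In 6 cases the LPS response of a gene differed between wild-type cells given a compound and untreated wild-type cells, by the test of that difference (edgeR, adjusted over all tested genes). That is 2 of the 10 genes with itraconazole, where 26.3% of all tested genes were called in either direction. With OSW-1 it is 4 of the 10, where 51.5% of all tested genes were called. Neither share was above that of all genes. With itraconazole, the difference was 0.39 ± 0.13 on the log2 scale for Nfe2l2 (adjusted p = 0.0262) and 2.12 ± 0.73 for Slc7a11 (adjusted p = 0.036). With OSW-1 it was 0.70 ± 0.21 for Gclc (adjusted p = 0.00746), 0.84 ± 0.27 for Gsr (adjusted p = 0.0113), 1.88 ± 0.47 for Nqo1 (adjusted p = 0.00174) and -0.55 ± 0.18 for Txn1 (adjusted p = 0.0112). The OSW-1 libraries with LPS hold odd counts and the libraries they are set against hold even counts, which cannot be told apart from the treatment. With even counts halved, 1 gene was called with itraconazole in place of 2. Txn1 with OSW-1 was not called without mouse 1 of untreated wild-type cells with LPS (-0.41, adjusted p = 0.0508).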

How the results depend on the processing

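Of 94 member values called, none changed sign in any alternative, and 21 lost the call in at least 1, of which 8 only on leaving out a library. For comparisons between compounds and between responses, 75 uncalled member values are not listed here; 27 of those changed sign in some setting and 10 were called in some setting. The cause of the changes below was not tested.

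With the mouse as a block, members called were 5 with itraconazole at rest and 2 for OSW-1 against itraconazole at rest, and genes called were 67 for 25HC against itraconazole at rest and 609 for OSW-1 against 25HC at rest. The block could not be fitted between genotypes. Fitted on the compared groups alone, members called were 7 with itraconazole at rest, 2 with 25HC and LPS, 1 with itraconazole and LPS, 2 for OSW-1 against itraconazole at rest and 0 for the itraconazole response difference. Genes called in that fit were 3134 with 25HC and LPS, 4546 with itraconazole and LPS, 0 and 0 for Ch25h-/- against wild-type at rest and with LPS, 96 and 0 for 25HC against itraconazole at rest and with LPS, 1946 for OSW-1 against itraconazole at rest, and 872 and 2227 for the 25HC and itraconazole response differences. DESeq2 called 129 and 230 genes for Ch25h-/- against wild-type at rest and with LPS, 111 and 1291 for 25HC against itraconazole, 2 members and 1313 genes for OSW-1 against itraconazole at rest, 714 for OSW-1 against 25HC at rest and 8 for the Ch25h-/- response difference. DESeq2 size factors gave 5 genes for Ch25h-/- against wild-type at rest and 1 for the response difference. No filter gave 3 genes for Ch25h-/- against wild-type at rest, 0 members for OSW-1 against itraconazole at rest and 1 for the itraconazole response difference, and halved even counts gave 6 genes for Ch25h-/- against wild-type at rest and 1 member for the itraconazole response difference.

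Leaving out single libraries, members called ranged from 3 to 6 with 25HC at rest, 4 to 8 with 25HC and LPS, 0 to 8 for Ch25h-/- against wild-type with LPS, 0 to 2 for OSW-1 against itraconazole at rest, and 0 to 1, 0 to 5 and 0 to 2 for the response differences of 25HC, itraconazole and Ch25h-/-. Genes called ranged from 2349 to 4009 with 25HC at rest, 2255 to 3204 with itraconazole at rest, 1 to 361 and 0 to 2379 for Ch25h-/- against wild-type at rest and with LPS, 19 to 30 and 101 to 1306 for 25HC against itraconazole, 169 to 681 and 83 to 331 for OSW-1 against itraconazole and 25HC at rest, and 875 to 2079 and 0 to 723 for the 25HC and Ch25h-/- response differences. Signs changed for uncalled values of Nfe2l2 (-0.08 to 0.02) and Nqo1 (-0.11 to 0.28) with itraconazole at rest, Gsr with OSW-1 at rest (-0.10 to 0.32), Txn1 (-0.16 to 0.12) and Prdx1 (-0.10 to 0.68) with 25HC and LPS, Gclm (-0.20 to 0.53), Nqo1 (-0.39 to 0.54) and Prdx1 (-0.70 to 0.08) with itraconazole and LPS, Prdx1 with OSW-1 and LPS (-0.66 to 0.12) and Srxn1 in Ch25h-/- cells at rest (-0.18 to 0.03). With the block Nqo1 with itraconazole and LPS was 0.06, against -0.02.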
